A study of Mus musculus with 15 samples.

Results

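Enzymes of drug and xenobiotic metabolism were followed in the mouse colon: 70 genes of the 12897 measured, chosen by symbol alone. They were 29 cytochrome P450 genes (Cyp), 7 UDP-glucuronosyltransferases (Ugt), 19 cytosolic or mitochondrial glutathione S-transferases (Gst), 5 sulfotransferases (Sult) and 10 carboxylesterases (Ces). P450 families 1 to 4 were searched for, and no gene of family 1 was among those measured. Of the 70, 66 were measured in all groups, and Cyp4a31, Cyp2j9, Cyp4f18 and Ces1g were tabulated for some of them only.

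P450 enzymes and carboxylesterases carry out phase I of this metabolism: they oxidize or hydrolyze foreign and endogenous compounds, which often exposes a reactive group. Phase II enzymes then attach a polar molecule to it, glucuronic acid by Ugt, glutathione by Gst and sulfate by Sult enzymes, so that the product can be excreted. Liver is the main site, and the absorptive epithelium of the gut carries its own set. Azoxymethane (AOM), the carcinogen of this model, is itself oxidized by P450 enzymes, Cyp2e1 among them, to an unstable product that alkylates DNA.

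The study compared C57BL/6 (B6) mice with Irf1-/- mutants on that background, which lack interferon regulatory factor 1, a transcription factor of interferon responses. Its question was how the mutant colon differs before tumors arise, since the mutants are susceptible to colitis-associated colorectal cancer. RNA of 15 distal colons was sequenced, from 3 mice in each of 5 groups: 2 sets of untreated B6 mice (control sets 1 and 2), untreated Irf1-/- mutants, and B6 and Irf1-/- mice on day 26 (D26) of treatment. Treated mice had received 1 injection of AOM at 7 mg/kg on D1, at 8 to 10 weeks of age. They then had 2% dextran sodium sulfate (DSS), a polysaccharide that injures the colonic epithelium, in drinking water from D8 to D11. No age is given in the labels for the untreated mice. The mutation is in every cell of the mutants, and whole tissue was sequenced, so that epithelium, muscle and immune cells are mixed in each library.

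Levels are given in CPM, read counts scaled to library size by TMM in edgeR. All 15 libraries held 22266607 to 22869853 counts, and a member had 60 to 11415 counts in a library. All 14 markers of colon epithelium were measured, with summed levels of 10672 to 17058 CPM, whereas 4 of 7 liver markers, the albumin gene Alb among them, were in none of the tables. Irf1 itself was at 79.4 to 123 CPM in the 6 Irf1-/- libraries, below all 9 B6 libraries at 128 to 227 CPM. Counts per gene do not show which part of the gene was deleted. In 3 treated libraries the X-inactivation transcript Xist was under 100 CPM (B6 replicates 1 and 2 at 25.2 and 5.97 CPM and Irf1-/- replicate 1 at 11.6 CPM), against 321 to 3729 CPM in the other 12, and the labels do not give the sex of the mice. Counts in treated B6 libraries also leaned towards GC-rich genes: for each 10% of GC the log2 level deviated from the mean library by 0.20 ± 0.08 (SD, n = 3) in them, and by -0.07 to -0.02 in the mean of each other group.

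Few members were called upregulated or downregulated, which took an adjusted p under 0.01 in edgeR's quasi-likelihood test over all genes and a 1.5-fold or larger change. Untreated Irf1-/- mice against control set 2 gave 1 call among 67 members tested, Cyp2c69 (0.405% of all genes were called, 0.0874% up), and treated Irf1-/- against treated B6 mice gave 4 among 68, Cyp2c68 up and Sult1a1, Ces2c and Ces2d-ps down (1.69% of all genes were called, 0.841% up and 0.849% down). Treatment gave no call among 69 members in B6 mice (0.0475% of all genes) and none among 68 in Irf1-/- mice (0.252%). At an unadjusted p under 0.05 there were 22 and 21 members (29.5% and 18.6% of all genes), and DESeq2 called 8 and 3 (3.49% and 1.74% of all genes). The difference between both responses gave no call among 68 members (0.016% of all genes). Here 5 members had an unadjusted p under 0.05 (16.9% of all genes) and DESeq2 called 1 (0.601%). Control set 2 against set 1 gave none among 66 (0.0644% of all genes), with 23 members at an unadjusted p under 0.05 (17.2%) and 8 calls in DESeq2 (1.16%).

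The most abundant members per length of transcript were glutathione S-transferases. Gstp1, of the pi class, averaged 250 CPM per kilobase over the 15 libraries, followed by the omega-class Gsto1 at 235 and Gstp2 at 211. Ces2c (172) and Ces2d-ps (133) led the carboxylesterases, Cyp2c55 (167), Cyp2d34 (125) and Cyp2c68 (79.5) the P450 genes, Sult1a1 (134), Sult1d1 (59.2) and Sult1b1 (47.5) the sulfotransferases, and Ugt2b34 (81.4), Ugt1a7c (29.9) and Ugt2b35 the glucuronosyltransferases. Gstp1 and Gstp2 are near-identical, with 62.3% and 72.6% of their 50-base windows found in another gene, and their counts may be split between them. Such windows occurred in 55 of 69 members, and made up more than 50% of the transcript in 12.

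Levels were also summed by family, without a test, and each sum rests mainly on a few abundant members. Ces2c, Ces2d-ps and Ces2a held 77.5% of the summed Ces level, averaged over the 5 groups, and Ugt2b34 held 64.7% of the Ugt level. The 9 Ces members summed to 670, 639 and 681 CPM in untreated Irf1-/- libraries and 472, 728 and 682 CPM in treated ones. In B6 mice they summed to 987, 1132 and 1012 CPM in control set 1, 1052, 721 and 906 CPM in set 2, and 1214, 825 and 1020 CPM at D26. All Irf1-/- libraries but 1 lay below all B6 libraries: treated replicate 2 was just above replicate 2 of set 2. Not every Ces member took part: against set 2, Ces1e, Ces1f and Ces2g had untreated log2 fold changes of 0.29, 0.06 and 0.10 (adjusted p = 0.487, 0.955 and 0.774). For Ces1f this depended on the set, as it was at 17.2 to 21.3 CPM in untreated Irf1-/- mice and 42.7 to 52.2 CPM in set 1. Ces1e was at 8.71 to 10.1 CPM in untreated Irf1-/- mice, above the 6.86 to 8.26 CPM of set 2. It overlapped with set 1, at 9.33 to 13.2 CPM. Ranges of Ces2g overlapped between untreated Irf1-/- mice and both sets. The 7 Ugt members summed to 465, 426 and 475 CPM in treated B6 and 403, 519 and 481 CPM in treated Irf1-/- libraries, all below the 556 to 665 CPM of the 9 untreated ones. Within that sum Ugt1a1 differed by 0.24 on treatment in B6 mice (adjusted p = 0.415). No family sum was corrected for GC content. The 5 Sult members summed to 353 to 478 CPM in the 6 Irf1-/- libraries and 458 to 641 CPM in the 9 B6 ones, and these ranges overlapped. The 19 Gst members ranged from 1011 ± 54.7 CPM (SD, n = 3) in control set 2 to 1221 ± 15.6 CPM in treated B6 mice. The 26 Cyp members ranged from 1407 ± 130 CPM in treated Irf1-/- mice to 1672 ± 140 CPM in control set 1, and single members went different ways within that sum.

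**Figure D1:**
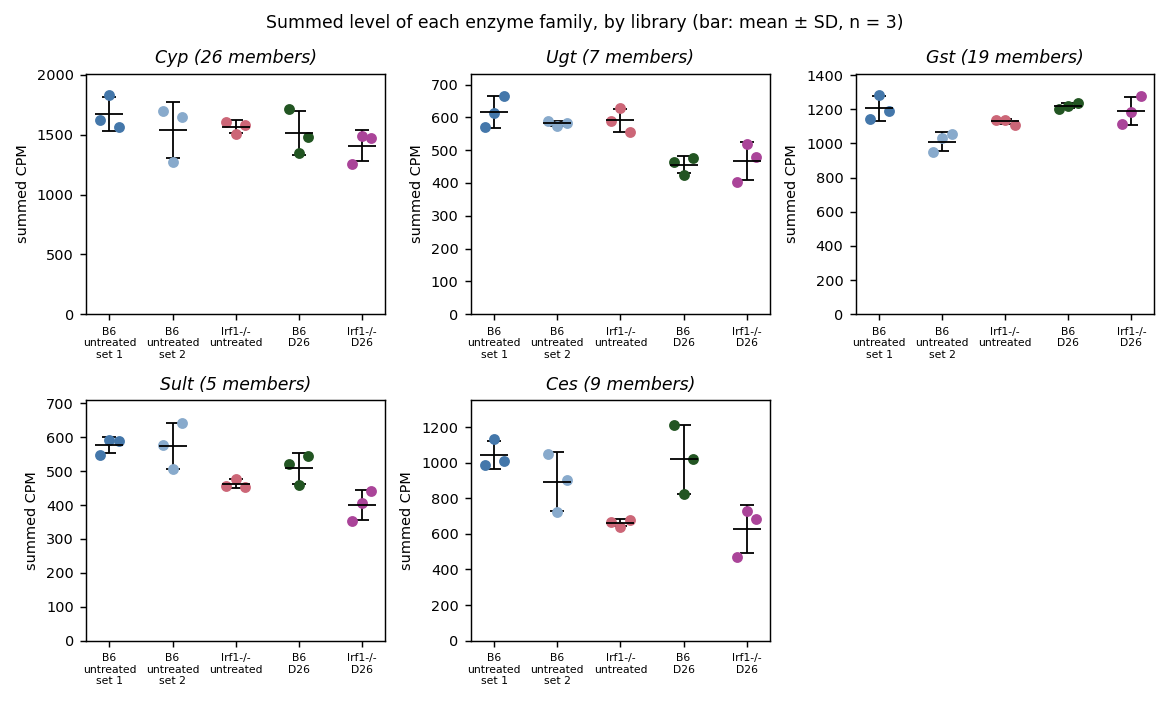
Summed CPM of the members of each family (vertical axis, from 0) in the 5 groups (horizontal axis). Points are libraries, and bars are the mean and SD of 3 mice. Ces sums are lowest in the 2 Irf1-/- groups (663 ± 21.5 and 627 ± 136 CPM), and Ugt sums are lowest in the 2 treated groups (455 ± 26.0 and 467 ± 59.1 CPM). Sums are not corrected for GC content.

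Among the P450 genes, Cyp2c40, Cyp2c67, Cyp2c68 and Cyp2c69 had alike patterns over the groups. They belong to subfamily 2C, whose enzymes oxidize drugs and fatty acids such as arachidonic acid. Cyp2c68, the most abundant of them, was at 156, 241 and 177 CPM in control set 1 and at 83.9, 68.1 and 72.2 CPM in treated B6 mice. In Irf1-/- mice it was at 184, 163 and 177 CPM untreated and at 110, 121 and 138 CPM treated. Treated and untreated libraries did not overlap in either genotype. The log2 fold change was -1.35 ± 0.16 (SE) in B6 (2.55-fold lower, adjusted p = 0.0122) and -0.50 ± 0.09 in Irf1-/- mice (1.42-fold lower, adjusted p = 0.0342), which missed the limit of 0.01. The direction held without the low-Xist libraries, at -1.39 in B6, where a lone treated mouse was left, and -0.43 in Irf1-/- mice (adjusted p = 0.036). It also held, at -0.69 (adjusted p = 0.00908), when treated B6 mice were set against control set 2.

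The other three genes also had their lowest group mean in treated B6 mice, at lower levels throughout. Cyp2c40 was at 46.4, 66.3 and 54.8 CPM in control set 1 and 30.4, 22.8 and 23.4 CPM in treated B6 mice, a log2 difference of -1.12 ± 0.15 (adjusted p = 0.0144). In Irf1-/- mice it was at 58.4, 48.3 and 51.9 CPM untreated and 34.9, 38.3 and 40.9 CPM treated (-0.47 ± 0.09, adjusted p = 0.0392). Cyp2c67 differed by -1.05 ± 0.20 in B6 (adjusted p = 0.0238) and -0.64 ± 0.10 in Irf1-/- mice (adjusted p = 0.0226), and Cyp2c69 by -1.06 ± 0.23 (adjusted p = 0.0298) and -0.61 ± 0.09 (adjusted p = 0.0226). None of these passed the limit on the adjusted p. With a correction for GC content, which was 42.1% to 42.6% in these transcripts, the B6 differences were -0.84 to -1.14 and only those of Cyp2c40 (adjusted p = 0.0473) and Cyp2c68 (adjusted p = 0.0344) stayed under 0.05.

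Between treated genotypes the same genes were higher in Irf1-/- mice. No library of the 2 treated groups overlapped for any of the 4. The same held, in this direction, for 10 of 68 members and for 14.5% of all genes. Cyp2c68 was called, at a log2 fold change of 0.72 ± 0.14 (1.65-fold, adjusted p = 0.00807), and Cyp2c40 differed by 0.58 ± 0.14 (adjusted p = 0.0204), Cyp2c67 by 0.52 ± 0.18 (adjusted p = 0.073) and Cyp2c69 by 0.48 ± 0.20 (adjusted p = 0.125). The call of Cyp2c68 held in 2 of the 12 fits that left out 1 mouse (log2 fold change 0.62 to 0.81, adjusted p 0.00233 to 0.0401) and was lost with the GC correction (0.51, adjusted p = 0.0998). Leaving out the low-Xist libraries kept a lone treated B6 mouse, and the log2 fold change of Cyp2c68 was then 0.85. Its responses to treatment differed between genotypes by 0.85 ± 0.20 (adjusted p = 0.0887), which did not pass, and by 0.20 (adjusted p = 0.534) when control set 2 stood for untreated B6 mice.

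Untreated Irf1-/- mice were above control set 2 for these genes and level with control set 1. Cyp2c69 was at 32.9, 27.1 and 32.3 CPM in untreated Irf1-/- mice, against 17.4 to 20.04 CPM in set 2 and 22.5, 38.8 and 29.6 CPM in set 1. Against set 2 the log2 fold change was 0.70 ± 0.10 (1.63-fold, adjusted p = 0.00843), and against set 1 it was 0.02 (adjusted p = 0.965). Cyp2c68 went from 0.52 ± 0.07 (adjusted p = 0.00756, under 1.5-fold) to -0.14 (adjusted p = 0.609), Cyp2c40 from 0.59 (adjusted p = 0.0144) to -0.08 (adjusted p = 0.762) and Cyp2c67 from 0.62 (adjusted p = 0.0186) to 0.10 (adjusted p = 0.775). Which set is the better match for the mutants is not given in the labels. The call of Cyp2c69 was also lost whichever of the 6 mice was left out (adjusted p 0.0113 to 0.0478).

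**Figure D2:**
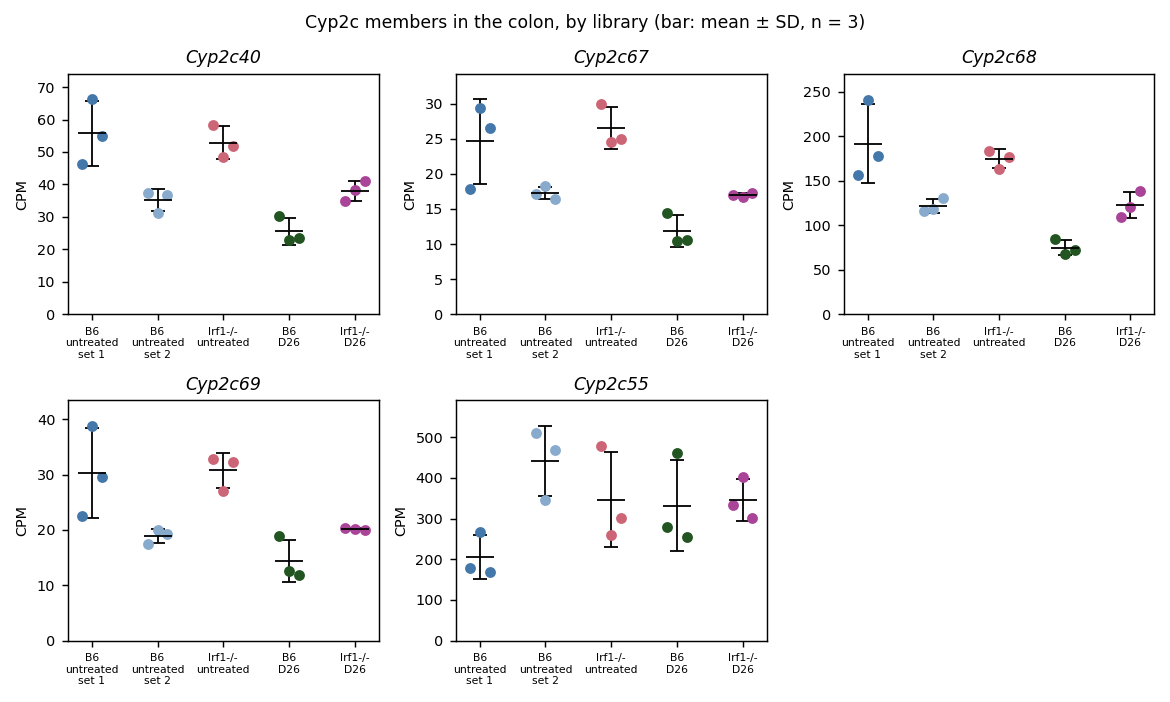
CPM of 5 Cyp2c genes (vertical axes, from 0, scaled per gene) in the 5 groups (horizontal axes). Points are libraries, and bars are the mean and SD of 3 mice. For Cyp2c40, Cyp2c67, Cyp2c68 and Cyp2c69 treated B6 mice have the lowest mean, and control set 1 and untreated Irf1-/- mice the highest, while Cyp2c55 is lowest in control set 1.

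Counts of these 4 genes may not be independent. Of the 50-base windows of each transcript, 72.1% of Cyp2c40, 52.8% of Cyp2c67, 43.3% of Cyp2c68 and 54.8% of Cyp2c69 were found in another gene, so that a read pair may be assigned to more than 1 of them. Their promoters are alike as well. The 250 bases before each start site (RefSeq, GRCm38.p6, all on the minus strand of chromosome 19) are shown because the genes moved together. Capitals mark a run of 26 bases that all 4 hold, at different distances from the annotated start, and that no other of 27025 genes with a promoter sequence has in this window.
Cyp2c40, chr19:39812815-39813064: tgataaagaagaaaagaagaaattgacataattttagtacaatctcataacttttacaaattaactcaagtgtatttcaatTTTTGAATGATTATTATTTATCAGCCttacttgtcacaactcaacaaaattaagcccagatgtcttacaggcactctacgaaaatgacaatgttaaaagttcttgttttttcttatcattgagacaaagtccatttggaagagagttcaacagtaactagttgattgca
Cyp2c67, chr19:39649043-39649292: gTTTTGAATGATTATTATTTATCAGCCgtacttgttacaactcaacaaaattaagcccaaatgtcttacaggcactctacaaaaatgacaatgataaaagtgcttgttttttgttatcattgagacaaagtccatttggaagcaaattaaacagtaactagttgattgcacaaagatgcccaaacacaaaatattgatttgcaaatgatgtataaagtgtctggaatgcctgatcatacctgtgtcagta
Cyp2c68, chr19:39741102-39741351: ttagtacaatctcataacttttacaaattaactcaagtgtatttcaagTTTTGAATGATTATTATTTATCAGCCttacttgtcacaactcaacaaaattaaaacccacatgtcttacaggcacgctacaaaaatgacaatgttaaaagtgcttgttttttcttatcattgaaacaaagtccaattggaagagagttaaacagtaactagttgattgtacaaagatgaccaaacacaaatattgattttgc
Cyp2c69, chr19:39886770-39887019: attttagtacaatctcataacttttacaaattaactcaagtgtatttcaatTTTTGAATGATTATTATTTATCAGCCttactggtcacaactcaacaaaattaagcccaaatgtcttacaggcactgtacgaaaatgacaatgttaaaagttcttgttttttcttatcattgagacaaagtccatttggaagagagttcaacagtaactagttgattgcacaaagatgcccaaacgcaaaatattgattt
The run begins 169, 249, 202 and 199 bases before the start of Cyp2c40, Cyp2c67, Cyp2c68 and Cyp2c69. In pairwise alignments 92.9% to 98.6% of aligned bases were identical, the closest pair being Cyp2c40 and Cyp2c69.

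Cyp2c55, a gene of the same subfamily, had another pattern. Its promoter, on the plus strand and shown for contrast with no capitals, shared 60.2% to 64.4% of aligned bases with the 4 above.
Cyp2c55, chr19:39006769-39007018: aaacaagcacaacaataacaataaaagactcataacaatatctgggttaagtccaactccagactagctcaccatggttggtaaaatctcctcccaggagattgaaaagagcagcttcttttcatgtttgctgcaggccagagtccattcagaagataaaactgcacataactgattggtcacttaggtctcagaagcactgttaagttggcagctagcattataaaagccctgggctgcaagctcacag
Only 0.514% of its transcript windows were found in another gene. It was at 178, 267 and 169 CPM in control set 1, 512, 345 and 468 CPM in set 2 and 479, 261 and 300.3 CPM in untreated Irf1-/- mice. Treated libraries were at 280.0, 461 and 255 CPM in B6 and 333, 402 and 301 CPM in Irf1-/- mice. Set 2 lay wholly above set 1 (log2 fold change 1.11 ± 0.18, adjusted p = 0.0326), whereas Cyp2c68 differed between the sets by -0.66 ± 0.14 (adjusted p = 0.0628). Neither treatment nor genotype passed the test for Cyp2c55.

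Among the conjugating and hydrolyzing enzymes, Sult1a1, Ces2c and Gstt1 were lower in all 6 Irf1-/- libraries than in all 9 B6 libraries. These were 3 of 66 members (0.873% of all genes were lower in this way), and no member was higher in this way (0.162% of all genes). As the tissue was sequenced whole, fewer cells that carry these transcripts and less of them per cell cannot be told apart. Sult1a1, which sulfates phenols and activates or clears aromatic compounds, was at 117, 136 and 147 CPM in untreated and 65.5, 92.3 and 146 CPM in treated Irf1-/- mice. B6 libraries held 220.0, 258 and 231 CPM in control set 1, 224, 180.3 and 280.4 CPM in set 2 and 210.1, 194 and 252 CPM at D26. The log2 fold change was -1.11 ± 0.21 between treated genotypes (2.16-fold lower, adjusted p = 0.00708) and -0.77 ± 0.14 between untreated ones (1.71-fold lower, adjusted p = 0.0346), which did not pass. Against control set 1 it was -0.83 (adjusted p = 0.00054). Without the low-Xist libraries, which left a lone treated B6 mouse, the treated difference was -1.08.

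Carboxylesterases of family 2 hydrolyze esters, among them prodrugs, in the gut wall. Ces2c was at 255, 252 and 265 CPM in untreated and 175, 266 and 264 CPM in treated Irf1-/- mice. It was at 405.5, 441 and 423 CPM in control set 1, 430, 270 and 376 CPM in set 2 and 500.3, 320.0 and 428.5 CPM in treated B6 mice. Treated genotypes differed by -0.82 ± 0.16 (1.77-fold lower, adjusted p = 0.0078), and untreated ones by -0.48 ± 0.14 against set 2 (adjusted p = 0.204) and -0.72 against set 1 (adjusted p = 9.48e-05). Ces2d-ps, listed as a pseudogene, had nearly the same values (-0.80 ± 0.15 treated, adjusted p = 0.00661). It shared 76.9% of its windows with other genes, and 38.2% of the windows of Ces2c were in Ces2d-ps, so that 1 signal may have been counted in both. Ces2a was at 87.5, 60.3 and 70.9 CPM in untreated and 44.0, 98.7 and 71.2 CPM in treated Irf1-/- mice. Treated B6 mice had 152, 102 and 134 CPM, and the treated difference was -0.86 ± 0.26 (adjusted p = 0.0461).

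Gstt1, a theta-class transferase that conjugates small halogenated compounds, had no window shared with another gene. It was at 20.4, 18.8 and 20.96 CPM in untreated and 16.9, 18.1 and 22.2 CPM in treated Irf1-/- mice, against 23.6 to 32.7 CPM in the B6 libraries. It differed by -0.45 ± 0.08 between untreated genotypes (adjusted p = 0.0289) and -0.60 ± 0.13 between treated ones (1.52-fold lower, adjusted p = 0.0118), which missed the limit. Against both control sets together the untreated difference was -0.48 (adjusted p = 0.00531), under 1.5-fold.

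Each call between treated genotypes was close to the limit. In the 12 fits that each left out 1 mouse, the call held for Sult1a1 in 2 (adjusted p 0.000299 to 0.036), for Ces2c in 1 (0.00143 to 0.0336) and for Ces2d-ps in 3 (0.00113 to 0.0304), while the direction held in all. With the GC correction the 3 differences were -1.16, -0.81 and -0.73 and the adjusted p 0.0112, 0.0135 and 0.0169. Epithelial markers leaned lower in treated Irf1-/- than in treated B6 mice, but none was called. Their sums overlapped, at 12883 to 17058 CPM in treated B6 and 12870 to 13889 CPM in treated Irf1-/- mice. A large part of each sum was the goblet cell mucin Muc2. It was at 2668, 7000 and 4821 CPM in treated B6 and 4311, 4657 and 4293 CPM in treated Irf1-/- mice. No sum without Muc2 was made, so the overlap need not hold for the other markers. Of the 14 markers, 13 had a negative log2 fold change there (median -0.23). Between untreated genotypes the median was -0.02 against set 2, with 5 of 14 positive. Untreated sums were 13357 to 13540 CPM in Irf1-/- mice, 10672 to 13548 CPM in set 2 and 11611 to 12287 CPM in set 1. Within them Muc2 was at 3621 to 3810 CPM, 2055 to 2731 CPM and 989 to 1828 CPM, in the same order. The part of these markers in the result was not tested.

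**Figure D3:**
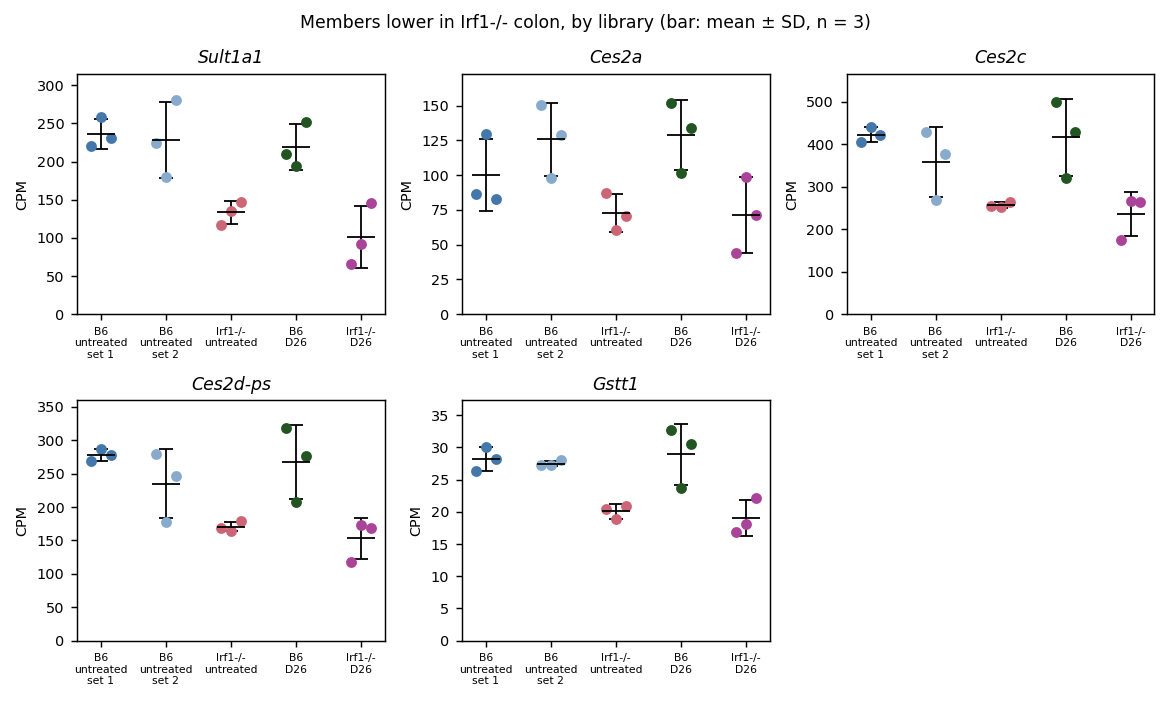
CPM of Sult1a1, Ces2a, Ces2c, Ces2d-ps and Gstt1 (vertical axes, from 0, scaled per gene) in the 5 groups (horizontal axes). Points are libraries, and bars are the mean and SD of 3 mice. The Irf1-/- groups have the 2 lowest means of each gene, for Sult1a1 133 ± 14.99 CPM untreated and 101 ± 40.8 CPM treated, against 219 to 236 CPM in the B6 groups.

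Promoters of the 3 genes that were lower in all Irf1-/- libraries were searched for an interferon element (GAAA, any 2 bases and GAAA, on either strand), which binds interferon regulatory factors. It was in the 250 bases before the start of Gstt1, where the match, read on the other strand, is in capitals, and it was not found in those of Sult1a1 and Ces2c.
Gstt1, chr10:75797732-75797981, minus strand: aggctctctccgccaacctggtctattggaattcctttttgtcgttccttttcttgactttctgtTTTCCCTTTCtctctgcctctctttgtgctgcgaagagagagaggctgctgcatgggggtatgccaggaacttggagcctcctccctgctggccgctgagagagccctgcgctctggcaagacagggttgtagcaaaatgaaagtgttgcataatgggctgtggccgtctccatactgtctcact
Sult1a1, chr7:126676419-126676668, minus strand: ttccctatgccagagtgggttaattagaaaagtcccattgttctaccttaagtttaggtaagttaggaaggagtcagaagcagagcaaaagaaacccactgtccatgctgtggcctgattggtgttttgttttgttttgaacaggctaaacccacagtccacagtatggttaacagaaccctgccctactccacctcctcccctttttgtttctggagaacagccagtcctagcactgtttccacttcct
Ces2c, chr8:104846818-104847067, plus strand: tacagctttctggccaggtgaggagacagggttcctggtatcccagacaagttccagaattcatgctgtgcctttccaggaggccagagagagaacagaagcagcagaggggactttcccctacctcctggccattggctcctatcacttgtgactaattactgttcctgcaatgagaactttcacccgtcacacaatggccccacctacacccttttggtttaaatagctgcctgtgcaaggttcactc
Of 57 members with a promoter sequence, 2 held this element, Gstt1 and Cyp4v3 (3.51%, against 3.46% of all 27025 genes). The core GCGTG, recognized by the aryl hydrocarbon receptor, was in 13 members (22.8%, against 30.9%), Gstp1, Gstm1 and Cyp2c68 among them. The antioxidant element TGACNNNGC was in 5 members (8.77%, against 11.5%), which were Cyp4f14, Cyp4f18, Gsta3, Gstm5 and Gstm7. A match is a run of letters and not evidence of binding.

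In response to AOM/DSS, members were more often lower than higher in Irf1-/- mice, and in B6 mice the direction depended on the control set. With control set 1 as untreated B6, the log2 fold change was negative in both genotypes for 36 of 68 members (52.9%, against 29.6% of all genes) and positive in both for 10 (14.7%, against 33% of all genes). The median was -0.13 in B6 and -0.10 in Irf1-/- mice, against 0.01 for all genes in each. Treated libraries lay wholly below untreated ones for 21 of 69 members in B6 (17.3% of all genes) and 16 of 68 in Irf1-/- mice (12.6%). Control set 1 had the highest group mean of all groups for 36 of 66 members. Against control set 2 the direction in B6 turned: 42 of 66 members had a positive log2 fold change (63.6%, against 52.7% of all genes), the median was 0.08 (0.02 for all genes), and no member but Cyp2c68 was called.

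**Figure D4:**
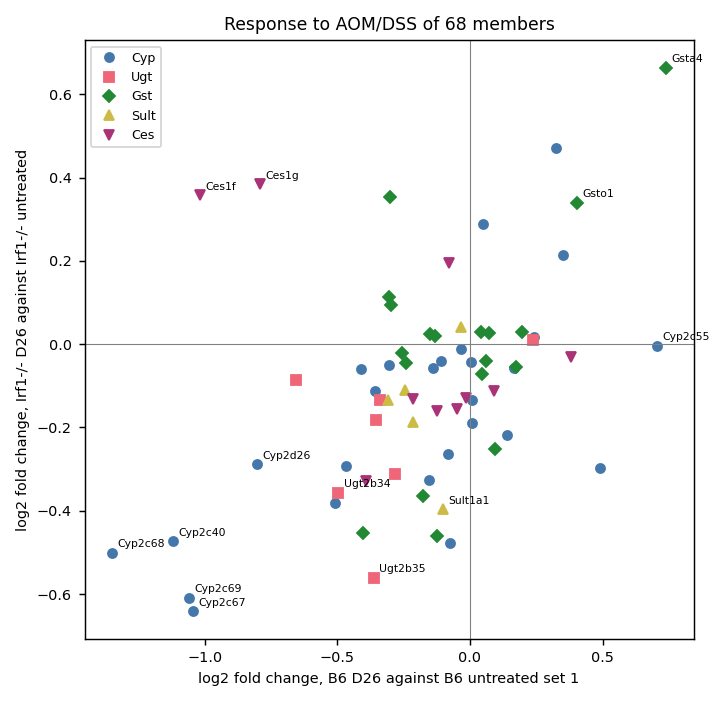
Log2 fold change on treatment of 68 members in B6 mice (horizontal axis, against control set 1) and in Irf1-/- mice (vertical axis, against untreated Irf1-/- mice). Each point is a gene, with colour and shape by family, and the 2 axes share no library. Of the points, 36 lie at the lower left, where Cyp2c68 is farthest to the left at -1.35, and 10 at the upper right, where Gsta4 is at 0.74 and 0.66. Against control set 2, not plotted, 42 of 66 members were positive in B6.

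Some glucuronosyltransferases were lower on treatment whichever untreated group was used. Ugt2b34, Ugt2b35 and Ugt1a7c, and with them the mu-class transferase Gstm6, which was named after its values were seen, were lower in all 6 treated libraries than in all 9 untreated ones (0.889% of all genes). Ugt2b34, the most abundant Ugt member, was at 293, 262 and 296 CPM in treated B6 and 277, 326 and 303 CPM in treated Irf1-/- mice. Untreated libraries held 363, 407 and 438 CPM in control set 1, 395, 370 and 371 CPM in set 2 and 382, 412 and 368 CPM in Irf1-/- mice. It differed by -0.50 ± 0.10 in B6 (1.41-fold lower, adjusted p = 0.0249) and -0.36 ± 0.08 in Irf1-/- mice (1.28-fold lower, adjusted p = 0.0598). With the GC correction the B6 difference was -0.15 (adjusted p = 0.509) and that in Irf1-/- mice -0.30 (adjusted p = 0.0866). The GC content of its transcript was 38.8%. Ugt2b35 differed by -0.36 ± 0.18 (adjusted p = 0.202) and -0.56 ± 0.14 (adjusted p = 0.0763), and Ugt1a7c by -0.28 ± 0.08 (adjusted p = 0.0598) and -0.31 ± 0.12 (adjusted p = 0.223). These values are without the GC correction, and the transcripts of Ugt2b35 and Ugt1a7c had a GC content of 39.3% and 44.8%. The Ugt1a genes share their last exons, and 69.3% of the windows of Ugt1a7c were found in another gene.

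The glutathione S-transferases Gsta4 and Gsto1 went the other way: their 6 treated libraries all lay above the 9 untreated ones (1.38% of all genes). Gsta4, which conjugates reactive aldehydes from lipid peroxidation, was at 45.5, 36.6 and 35.8 CPM in treated B6 and 36.7, 40.5 and 46.6 CPM in treated Irf1-/- mice, and at 17.1 to 30.8 CPM in untreated libraries. The log2 fold change was 0.74 ± 0.16 in B6 (1.67-fold, adjusted p = 0.0332) and 0.66 ± 0.13 in Irf1-/- mice (1.58-fold, adjusted p = 0.0392). Against both control sets together it passed, at 0.82 (adjusted p = 0.00572). Gsto1, which reduces dehydroascorbate and methylated arsenic, was at 316, 371 and 313 CPM and 280.1, 310 and 377 CPM in the treated groups, and at 210.2 to 277 CPM untreated. It differed by 0.40 ± 0.10 (adjusted p = 0.0428) and 0.34 ± 0.11 (adjusted p = 0.13). Neither gene had a window shared with another gene, and the responses of both differed little between genotypes (-0.07 ± 0.23 and -0.06 ± 0.15, adjusted p = 0.91 and 0.887).

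**Figure D5:**
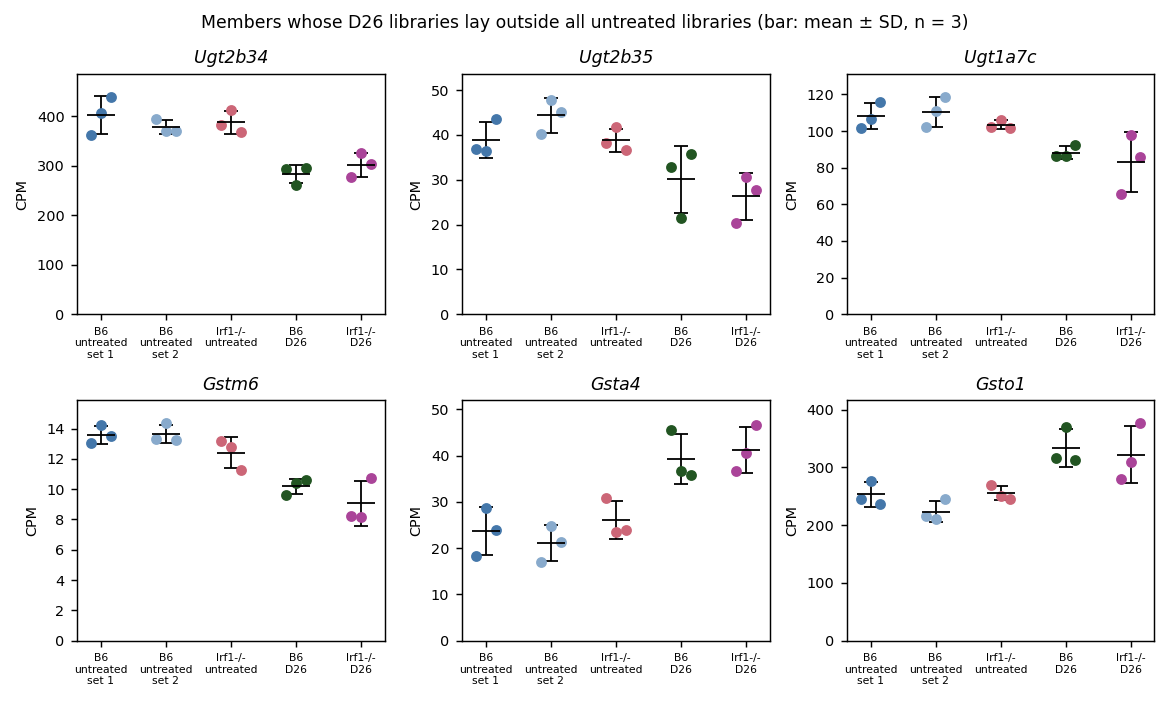
CPM of the 6 members whose treated libraries all lay outside the untreated ones (vertical axes, from 0, scaled per gene) in the 5 groups (horizontal axes). Points are libraries, and bars are the mean and SD of 3 mice. Ugt2b34, Ugt2b35, Ugt1a7c and Gstm6 are lower and Gsta4 and Gsto1 higher in both treated groups.

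Leukocyte markers and Muc2 leaned higher in treated libraries, with overlapping ranges and no call in either response. Of 10 leukocyte markers, Cd3e and Cd8a were in none of the tables, and the other 8 summed to 393 to 561 CPM in treated B6 and 474 to 483 CPM in treated Irf1-/- mice, and to 248 to 448 CPM in untreated libraries. The goblet cell mucin Muc2 was at 2668 to 7000 CPM in treated and 989 to 3810 CPM in untreated libraries. Its means also differed without treatment, at 1513 CPM in set 1, 2419 CPM in set 2 and 3726 CPM in Irf1-/- mice. The part of these transcripts in the member differences was not tested.

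The B6 control sets were compared with each other, and no member passed the limit of 0.01 on the adjusted p. Members were lower in set 2, with a negative log2 fold change for all but 14 of 66 and a median of -0.21, and 23 lay wholly below set 1 (10.9% of all genes). Ces1f, a carboxylesterase of family 1, was at 42.7, 52.2 and 43.8 CPM in set 1 and 17.7, 22.9 and 13.2 CPM in set 2 (-1.37 ± 0.17, adjusted p = 0.0107). The other groups were nearer to set 2, at 9.79 to 36.2 CPM, and the B6 response of -1.02 ± 0.14 (adjusted p = 0.0144) became 0.35 (adjusted p = 0.246) against set 2. Cyp2d26 (-0.86 ± 0.13, adjusted p = 0.0243), Cyp4f16 (-0.84 ± 0.13, adjusted p = 0.0276), Ugt1a6a (-0.57 ± 0.10, adjusted p = 0.0371) and Gstm1 (-0.51 ± 0.08, adjusted p = 0.0255) were also lower in set 2. Of these, Gstm1 differed between untreated genotypes by 0.37 ± 0.07 against set 2 (adjusted p = 0.0266) and by -0.14 against set 1 (adjusted p = 0.303).

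Beyond Cyp2c68, Cyp2c69, Sult1a1, Ces2c and Ces2d-ps, no member was called in any comparison fitted as the main test. Ces1g, measured in 4 groups, had the smallest p of the difference between responses after Cyp2c68: it was at 7.31, 10.6 and 8.78 CPM in set 1 and 5.18, 5.52 and 4.59 CPM in treated B6 mice, and at 4.55 to 6.67 CPM and 6.38 to 9.74 CPM in untreated and treated Irf1-/- mice. The responses differed by 1.18 ± 0.29 (adjusted p = 0.0952). Gstm2, of the mu class, differed by -0.37 ± 0.07 in Irf1-/- mice (adjusted p = 0.0399), and Gsta3, of the alpha class, by 0.66 ± 0.21 between responses (adjusted p = 0.159). Cyp2e1, described here for its role in AOM activation and outside the rule for named genes, ranged from 29.1 to 42.9 CPM over all libraries. Gstp1, Gstp2, Sult1b1, Sult1d1 and Cyp2d34 passed no test, and Gstp1 stayed between 166 and 252 CPM in the 15 libraries.

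Of the other genes of the pathway, 1 was called. Of 15 receptors and other regulators of xenobiotic response, 13 or 14 were tested and none was called in any comparison, and the same held for 19 cofactor and other conjugating genes (17 or 18 tested) and 10 drug transporters (8 or 9 tested). Among 28 phase I partners and other oxidoreductases, 24 of them tested, the call was Aldh1b1. Aldh1b1, a mitochondrial aldehyde dehydrogenase, was at 121, 165 and 169 CPM in treated Irf1-/- and 284, 203 and 236 CPM in treated B6 mice (-0.67 ± 0.13, adjusted p = 0.00729). The median log2 fold change of the transporters was -0.15 on treatment in B6 mice against set 1 (2 of 9 positive) and -0.02 in Irf1-/- mice (4 of 9 positive). Untreated set 2 was itself lower than set 1 for them, with a median of -0.20 and 0 of 8 positive. Differences that missed the limit were not all small: over the 4 lists, treated libraries lay wholly below control set 1 for 17 of 64 genes in B6 (17.3% of all genes) and wholly above for 4 (17.2%). In Irf1-/- mice they lay wholly below untreated ones for 19 of 65 genes (12.6% of all genes) and wholly above for 11 (12.5%). Abcc2, an efflux pump for conjugates, was at 5.20, 8.37 and 7.59 CPM in control set 1 and 2.11, 1.47 and 3.46 CPM in treated B6 mice (-1.58 ± 0.31, adjusted p = 0.0246). Ugdh, which makes the sugar donor of glucuronidation, differed by -0.79 ± 0.10 (adjusted p = 0.0122), but was also lower in set 2 than in set 1 by -0.65 ± 0.11 (adjusted p = 0.0406). Both genes were named after their values were seen.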

How the data were processed

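Colons of 15 mice in 5 groups were analysed by RNA-seq. For each gene the authors deposited raw read counts in 3 tables, keeping genes at 5 CPM or more in at least 3 libraries. The libraries were rRNA-depleted and stranded, with paired reads of 50 bases. The submitters' processing notes name TopHat2 2.0.9, Bowtie 1.0.0, featureCounts, edgeR and mm9. The authors' 36 CPM and log2 CPM columns and 18 columns of their own comparisons (fold changes, p-values) were not used.

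Counts were scaled with TMM and fitted over all genes of a comparison with edgeR 4.0.16 (quasi-likelihood, R 4.3.3). Comparisons of treated genotypes and of responses were fitted on 4 groups, and the others on 2. A call needed a fold change of at least 1.5 and a Benjamini-Hochberg adjusted p under 0.01. Errors of log2 fold changes are SE. The labels give 3 biological replicates per group.

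Named were all called members, the 6 of smallest p in each comparison and the 3 of highest level per kilobase in each family. Members, lists and tests were chosen with earlier results of these data known. Alternatives were RLE, DESeq2 1.42.0, a 10 CPM filter, edgeR's exact test, 1 fit of all libraries, a limit of 0.05 on the adjusted p, a replicate block, leaving out each mouse, a lowess GC correction (span 0.3), log2 Xist as covariate and the other or both control sets. Leaving out libraries under 100 CPM of Xist was added after seeing the data. Transcript length, GC content and shared 50-base windows came from GENCODE M21 (69 members), and promoters (57 of 70 members) from RefSeq, GRCm38.p6. The fits were tested on simulated data.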

Additional observations from a re-analysis of the deposited data

How the results depend on the processing

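The number of members called depended on the method, and the direction of many members depended on the B6 control set. Shares of all genes are not set beside the counts below, which show how calls moved and not whether members stood out. RLE scaling changed no count of calls. Untreated genotypes gave 1 member up and 0 down as reported, 4 and 2 in DESeq2, 3 and 2 in edgeR's exact test, 3 and 1 at an adjusted p under 0.05, 0 and 0 in 1 fit of all libraries, 0 and 0 with the GC correction, 0 and 1 when log2 Xist was a covariate, 0 and 6 against the other control set, 0 and 1 against both sets, and 0 up and 0 to 3 down when 1 mouse was left out. The B6 response, with 0 and 0, gave 1 up and 7 down in DESeq2, in the exact test and at an adjusted p under 0.05, 0 and 5 in 1 fit of all libraries, 0 and 1 with a filter of 10 CPM, 0 and 1 against the other control set, 1 and 1 against both sets, and 0 to 3 down without 1 mouse (3 without treated B6 replicate 1). The Irf1-/- response gave 1 and 2 in DESeq2, the exact test and at an adjusted p under 0.05, and the difference of responses 1 up in DESeq2. Treated genotypes, with 1 up and 3 down, gave 1 and 5 at an adjusted p under 0.05, and 0 and 0 with the GC correction. They gave 0 up with log2 Xist as a covariate, and 0 to 1 up and 0 to 7 down without 1 mouse (7 without treated B6 replicate 2). Fits without the low-Xist libraries left a lone treated B6 mouse, and calls are not counted from them. The control sets gave 1 and 7 in DESeq2, 1 and 8 in the exact test, 1 and 3 at an adjusted p under 0.05, 1 down with the filter, 1 up with log2 Xist as a covariate, and 0 to 1 down without 1 mouse. The causes were not tested.

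Single members were followed if they were among those of smallest p in a comparison or had an adjusted p under 0.05. Against the other control set the sign turned for 8 of their values. Between untreated genotypes these were Cyp2c68 (-0.14), Cyp2c40 (-0.081) and Gstm1 (-0.14). In the B6 response they were Ces1f (0.35), Cyp2d26 (0.064) and Ugt1a6a (0.24), and in the difference of responses Cyp2c40 (-0.016) and Cyp2d26 (-0.34). Over all members more signs turned. Positive values went from 46 of 67 to 17 of 66 between untreated genotypes and from 23 of 69 to 42 of 66 in the B6 response. In the difference of responses they went from 35 of 68 to 16 of 66.

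Replicate numbers did not pair the samples: correlations of same-numbered deviations ran from -0.22 to 0.25. With the replicate block, untreated genotypes gave 1 up and 1 down (1 and 1 with the GC correction and the block), treated genotypes 0 up and 1 down (0 and 1 with both), and the control sets 1 down.

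With 3 mice a group, a lone mouse left in an arm is assumed to vary like the others. The exact test cannot be applied to the difference of responses. The summed level of the members moved by less than 1 SD under RLE scaling in all 5 groups.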
